A study of Mus musculus with 8 samples.

Results

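The cell cycle and DNA replication genes were 35 of the 17810 genes counted in whole liver, taken by their gene symbols and grouped by the role of their proteins. They comprised 10 genes of mitosis and chromosome segregation, 4 for the cyclins A and B and their kinase, 7 of the replication fork, 4 of deoxynucleotide supply, 6 for G1 cyclins and E2F1, 3 for inhibitors of cyclin-dependent kinases, and Rad51b. RNA-Seq compared 4 WT with 4 HKO littermates, all male and 5 months old, with 1 library per liver. In the labels the free-text descriptions of all 4 WT livers carry a single animal number, while their titles and data columns carry different ones, and the titles were followed, so that every n and p-value for WT livers rests on them. HKO mice carry miR-33 alleles flanked by loxP sites, which Cre recombinase expressed from the albumin promoter deletes in hepatocytes, so that other liver cells keep the gene. No further alleles are given for the WT mice. Both genotypes ate chow until 8 weeks of age and then spent 3 months on CD-HFD, a high-fat diet that lacks choline, the stage of simple steatosis in this model. No library came from mice on chow alone. The data column names end in running numbers that are lower for the HKO than for the WT libraries. The labels do not say what these numbers stand for, and whatever follows them cannot be told apart from genotype.

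A cell that divides first passes through G1, where D and E cyclins activate kinases that release the transcription factor E2F from the retinoblastoma protein. E2F targets then supply deoxynucleotides and load the MCM helicase for S phase, and a later set of genes, with cyclins A and B, CDK1 and the chromosome segregation machinery, is transcribed in G2 and M. Most hepatocytes of an adult liver are quiescent and re-enter the cycle after injury, and many of them end up with extra chromosome sets. Mature miR-33 represses transcripts whose 3′UTR pairs with its seed, bases 2 to 8, printed in capitals in the RefSeq sequence that follows because the deletion removes it.
miR-33-5p: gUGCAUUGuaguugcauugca
This strand lies on chromosome 15 at chr15:82198127-82198147 (GRCm38.p6, plus strand), within Srebf2. The miRNA was not measured in these libraries, and the genotype was taken from the labels.

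The livers gave 12174339 to 18735785 counts. Levels are given as CPM (counts scaled to libraries of equal size), on which 3 counts, the smallest level read here as present, were 0.149 to 0.255 CPM. These values cover counting error only. HKO 3 stood apart from its group, with a chi-square per degree of freedom of 114 to 128 against the other HKO livers, where all other pairs within a genotype gave 19.6 to 43.8, and values without it are given where they change a call. The hepatocyte markers were abundant in all 8 livers (summed 71285 to 125344 CPM), with 4 of 7 called higher in HKO livers. Cps1 was called without any 1 liver, Tat in 7 of the 8 fits that leave out a liver, Serpina1c in 3 and Hnf4a in 1, and Hnf4a was not called on total count scaling (adjusted p = 0.151). Of the markers of other cells, Col1a1 and Col3a1 among 8 stellate cell genes were called lower in all 8 of these fits. Of the 8 stellate cell genes 5 had lower and 3 had higher means in HKO livers, and all but these 2 collagens overlapped. Ccr2 among 10 macrophage genes was called lower but in only 2 of the fits that leave out a liver. None of the 21 tested endothelial, cholangiocyte, erythroid, lymphocyte or neutrophil markers were called by edgeR (1 at an unadjusted p under 0.05, Cd4, which DESeq2 called higher).

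Few of the cell cycle genes passed the threshold for a difference between the genotypes. Of the 35 genes 29 had enough counts to be tested, and edgeR's quasi-likelihood fit called 4 at a threshold of 0.05, after the Benjamini-Hochberg method was applied over the 12395 genes tested. Mki67, Top2a and Rad51b were lower in HKO livers and Tk1 was higher. This is 13.8% of the tested members, against 5.03% of all genes tested, of which 3.37% were called lower and 1.66% higher. DESeq2 called 6 members, adding Ccnb1 and Cdkn1a, with 7.67% of the 12901 genes to which it gave an adjusted p called, and limma-voom called 3, without Rad51b, with 4.91% called. In mean CPM, 28 of the 35 genes were lower in HKO livers and 7 were higher, against 8695 lower and 9115 higher of all 17810 genes counted. Among tested members, the 4 HKO values lay wholly below the 4 WT values in 7 genes and wholly above in 2, against 7.19% and 5.34% of all genes tested. The median log2 fold change (HKO over WT) of the tested members was -0.26, against 0.01 for all genes tested. In edgeR 11 of the 29 tested members had an unadjusted p under 0.05, and 3 had an adjusted p from 0.05 to 0.1.

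Low counts limit what can be said of the mitotic genes. In 13 of the 35 genes at least 1 liver held under 10 counts, namely Ccnb1, Ccnb2, Cdk1, Birc5, Bub1, Bub1b, Aurkb, Plk1, Cdc20, Ube2c, Ccne1, Cdkn1a and Rad51b. Of these 7 passed the expression filter and 6 did not (Ccnb1, Bub1, Aurkb, Plk1, Cdc20 and Ccne1). A gene can pass that filter through the genotype where it is higher, so the counts and the median over tested members are a description of those members alone. Per kilobase of the longest annotated coding transcript, the highest mean levels in WT livers were 18.9 CPM for Pcna, 11.1 CPM for Ccnd1 and 8.30 CPM for Cdkn1b. Per kilobase Mki67 was at 0.937 CPM and Plk1 at 0.249 CPM in WT livers, so that the mitotic genes were among the weakest transcripts of the list.

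**Figure D1:**
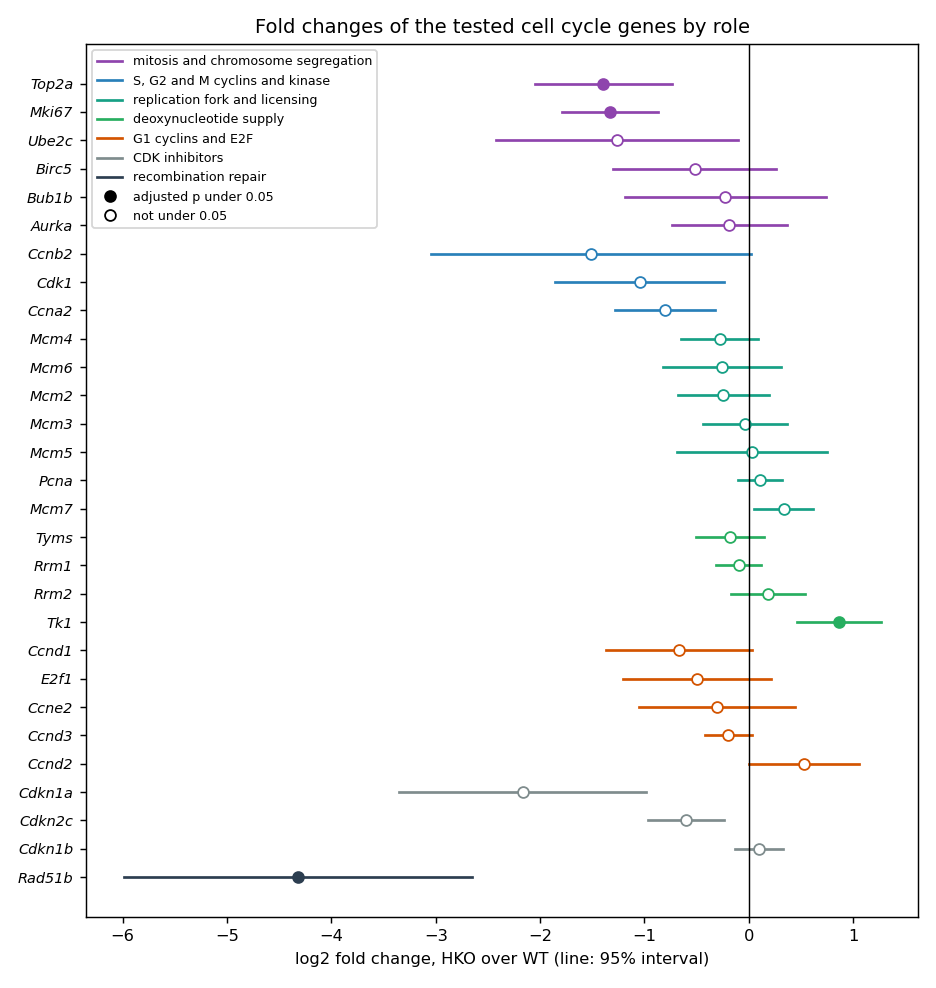
log2 fold changes (HKO over WT, horizontal axis) of the 29 tested members, coloured by role, with lines for 95% intervals and filled points for an adjusted p under 0.05 (edgeR). The 9 mitotic genes and cyclins at the top all lie below 0, the replication genes scatter around 0, Tk1 lies at 0.86 and Rad51b at -4.32.

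All 14 mitotic genes, cyclins A and B and Cdk1 included, had lower means in HKO livers, and 2 of the 9 that were tested passed the threshold. Mki67, the gene for the proliferation antigen Ki67 that coats mitotic chromosomes (chromosome 7, 135689788 to 135716380), was at 9.09, 8.38, 12.8 and 7.43 CPM in WT 1 to 4 and at 4.93, 3.47, 2.93 and 3.75 CPM in HKO 1 to 4. All WT livers lay above all HKO livers. WT livers averaged 9.43 ± 2.37 CPM and HKO livers 3.77 ± 0.843 CPM (SD, n = 4 each), and the log2 fold change was -1.33 (SE 0.21, edgeR adjusted p = 0.00544). Mki67 was called under every alternative model and scaling and without any 1 liver.

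Top2a, which encodes the topoisomerase that untangles sister chromatids (chromosome 11, 98992947 to 99024190), was at 3.55, 3.42, 4.48 and 3.09 CPM in WT livers and at 2.09, 1.47, 0.676 and 1.36 CPM in HKO livers. The genotypes did not overlap, and HKO 3 was lowest with 12 counts. The log2 fold change was -1.39 (SE 0.30, edgeR adjusted p = 0.0235). The call was lost without WT 1 (adjusted p = 0.0587), WT 2 (0.0677), WT 3 (0.0615) or HKO 4 (0.0593), with edgeR log2 fold changes of -1.67 to -1.14 over the 8 fits.

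The cyclins and their kinase lay in the same direction without passing the threshold. Ccna2, the cyclin of S and G2 phase, was at 3.89, 2.51, 4.13 and 3.35 CPM in WT and at 1.75, 2.01, 1.92 and 2.30 CPM in HKO livers. These values did not overlap, and the log2 fold change was -0.81 (SE 0.22, edgeR adjusted p = 0.0595). Its counts are fractional in all 8 livers, which means that reads were divided between Ccna2 and other genes by the quantification. Ccna2 was called by edgeR on total count scaling (adjusted p = 0.0401). It was not called by DESeq2 (0.0527), by limma-voom (0.0764) or with the replicate number as a block (0.137). No fit that leaves out a liver called it (0.0632 to 0.152). Cdk1, the kinase that drives entry into mitosis, was at 1.74, 2.16, 2.29 and 1.38 CPM in WT and at 1.69, 0.540, 0.789 and 0.596 CPM in HKO livers. HKO 1 lay within the WT range, and the other HKO livers lay below it (log2 fold change -1.05, SE 0.37, edgeR adjusted p = 0.138).

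Cyclin B genes were weaker still. Ccnb1 had 14, 7, 34 and 8 counts in WT livers and 5, 4, 1 and 2 counts in HKO livers. All HKO values were lower, 0.218 ± 0.130 CPM against 0.966 ± 0.573 CPM (SD, n = 4 each), a 4.43-fold difference in mean CPM. HKO 3 and HKO 4, with 1 and 2 counts, were under the floor. The main edgeR fit did not test Ccnb1 for lack of counts. DESeq2 called it (adjusted p = 0.0438), and edgeR without the expression filter did not (adjusted p = 0.0553). Ccnb2 had 13, 9, 19 and 12 counts in WT and 14, 1, 2 and 0 counts in HKO livers, so that HKO 1 matched the WT livers while the others were nearly devoid of it. Its log2 fold change was -1.51 (SE 0.70, edgeR adjusted p = 0.261). Without HKO 1, the HKO liver within the WT range, the edgeR adjusted p fell to 0.0177 for Ccnb2 and to 0.0340 for Cdk1. Neither was called in the other fits that leave out a liver (0.320 to 0.444 for Ccnb2 and 0.129 to 0.301 for Cdk1).

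The remaining mitotic genes were counted sparsely. Ube2c, the ubiquitin-conjugating enzyme of the anaphase-promoting complex, had a log2 fold change of -1.26 (SE 0.53, edgeR adjusted p = 0.215), with 7 to 21 counts in WT livers and 3, 13, 3 and 4 counts in HKO livers. It was called without HKO 2 (edgeR adjusted p = 0.0466), the HKO liver whose count lay within the WT range. The other fits that leave out a liver did not call it (adjusted p up to 0.394). Birc5, the survivin subunit of the chromosomal passenger complex, averaged 1.77 ± 0.433 CPM in WT livers against 1.23 ± 0.586 CPM in HKO livers (SD, n = 4 each). The difference was -0.52 on the log2 scale (edgeR adjusted p = 0.471).

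Bub1b, a spindle checkpoint kinase gene, and Aurka, whose kinase matures the spindle poles, showed the least difference in this group. Their log2 fold changes were -0.23 (95% interval -1.19 to 0.74) and -0.19 (95% interval -0.74 to 0.37). Aurka had the highest level in WT livers after Mki67 and Top2a, with 1.74 to 2.96 CPM there and 1.53 to 2.50 CPM in HKO livers. The 4 untested genes of the group were Bub1, Aurkb, Plk1 and Cdc20. Aurkb, the kinase of the passenger complex, had 10, 6, 14 and 4 counts in WT and 2, 1, 3 and 3 in HKO livers. Plk1, the Polo kinase of mitotic entry, had 3, 8, 16 and 9 counts against 0, 2, 1 and 4. Bub1 had 12, 4, 23 and 4 counts against 4, 2, 6 and 0, and Cdc20, the activator of the anaphase-promoting complex, had 12, 5, 17 and 14 against 5, 6, 6 and 2. The HKO means of all 4 were lower, and only Aurkb did not overlap. For Aurkb this rested on 0.263 CPM in WT 4 against 0.255 CPM in HKO 4, with all HKO counts at or under the floor.

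Summed over the 14 mitotic genes, the level was 29.1, 24.6, 35.7 and 25.2 CPM in WT and 18.0, 13.7, 11.1 and 12.2 CPM in HKO livers, a ratio of means of 2.09 (WT over HKO), or 1.93 without Mki67. The lowest WT sum lay above the highest HKO sum. WT 3 held the highest value for 8 of the 14 genes, WT 1 for 4 and WT 4 for 2. The lowest value was in HKO 4 for 5 genes, in HKO 3 for 4, in HKO 1 and HKO 2 for 2 each, and in WT 4 for 1. In whole liver, fewer cells in cycle and less of these transcripts per cell cannot be told apart. The libraries do not show which cells the transcripts came from. The summed macrophage markers ranged from 110 to 273 CPM in WT and from 81.3 to 247 CPM in HKO livers. Of the 10 macrophage markers 7 had lower and 3 had higher means in HKO livers. Only Ccr2 was lower in all HKO livers than in all WT livers, and the others overlapped. The endothelial markers ranged from 65.4 to 211 CPM in WT and from 106 to 238 CPM in HKO livers. The erythroid markers, which include globins of blood left in the tissue, were highest in WT 2 and WT 4 (235 and 270.0 CPM) and at 66.1 to 112 CPM in all others. The stellate cell markers summed to 372 to 532 CPM in WT and 307 to 414 CPM in HKO livers, and the cholangiocyte markers to 30.97 to 53.3 CPM in all livers but HKO 2 (111 CPM). Their part in the mitotic values was not tested.

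**Figure D2:**
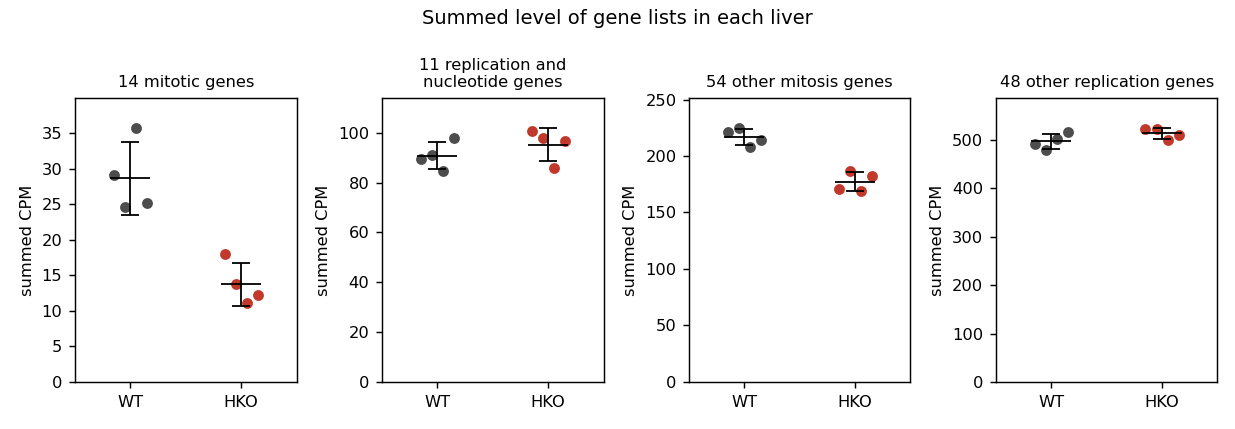
Summed CPM (vertical axis, from 0) of 14 mitotic members, 11 replication and deoxynucleotide members, 54 other mitosis genes and 48 other replication genes in each WT (grey) and HKO (red) liver, with mean and SD (n = 4). The sums of both mitotic lists separate the genotypes, with 24.6 to 35.7 CPM in WT against 11.1 to 18.0 CPM in HKO livers for the members.

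Most mitotic genes with a promoter window held letters known from genes expressed late in the cycle. The group was chosen as genes of that kind, so the matches do not bear on the differences between the livers. The cell cycle homology region (CHR) is a short element bound by the DREAM and MuvB complexes in genes expressed late in the cycle, often next to CCAAT boxes bound by NF-Y. RefSeq promoters from 250 bases before to 50 bases after the start were at hand for 29 of the 35 genes (GRCm38.p6), not for Ccna2, Aurkb, Ccne2, Ccnd2, Ccnd1 and Mcm4. A CHR match, TTTGAA or TTCGAA on either strand, was found in 13 of 29 members (44.8%) and in 21.7% of the 27025 genes with such a window. It was found in 10 of 12 mitotic members and in 2 of 10 replication and deoxynucleotide members. A CCAAT match on either strand was found in 23 of 29 members and in 41.1% of all genes. An E2F match (TTTCCCGC, TTTGGCGC, TTTGCCGC or TTTCGCGC, either strand) was found in 5 of 29 members, 4 of them replication genes, and in 2.6% of all genes. None of these words lies within another, and the palindrome TTCGAA was counted once. The windows of Mki67, Top2a and Cdk1 are shown from 150 bases before to 50 bases after the start, with matches in capitals, beside that of Tk1, which held none. They lie at chr7:135716330-135716529, chr11:99024140-99024339, chr10:69352863-69353062 and chr11:117825965-117826164, all on the minus strand and written 5′ to 3′.
Mki67: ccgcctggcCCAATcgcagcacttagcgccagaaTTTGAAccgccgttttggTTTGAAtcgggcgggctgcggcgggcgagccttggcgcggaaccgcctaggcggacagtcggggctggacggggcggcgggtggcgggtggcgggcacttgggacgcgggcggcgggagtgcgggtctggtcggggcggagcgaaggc
Top2a: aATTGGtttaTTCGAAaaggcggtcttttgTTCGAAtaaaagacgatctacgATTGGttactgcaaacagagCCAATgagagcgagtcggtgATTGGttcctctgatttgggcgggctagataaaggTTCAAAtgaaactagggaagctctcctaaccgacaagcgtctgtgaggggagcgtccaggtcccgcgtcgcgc
Cdk1: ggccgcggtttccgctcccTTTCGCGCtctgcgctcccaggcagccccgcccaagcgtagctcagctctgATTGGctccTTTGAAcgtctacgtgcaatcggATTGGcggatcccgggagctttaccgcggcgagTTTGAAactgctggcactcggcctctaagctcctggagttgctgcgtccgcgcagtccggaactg
Tk1: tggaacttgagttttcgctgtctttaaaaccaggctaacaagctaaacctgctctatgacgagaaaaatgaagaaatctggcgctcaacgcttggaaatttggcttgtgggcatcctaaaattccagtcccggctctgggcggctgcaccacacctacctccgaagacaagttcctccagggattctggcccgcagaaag
Mki67 held 2 CHR matches and 1 CCAAT match, Top2a 3 and 4, and Cdk1 2 and 2 with an E2F match at position -131. Among other genes, Birc5, E2f1 and Tyms held no match in this window either. The capitals mark matches of letters only, and no binding was measured.

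**Figure D3:**
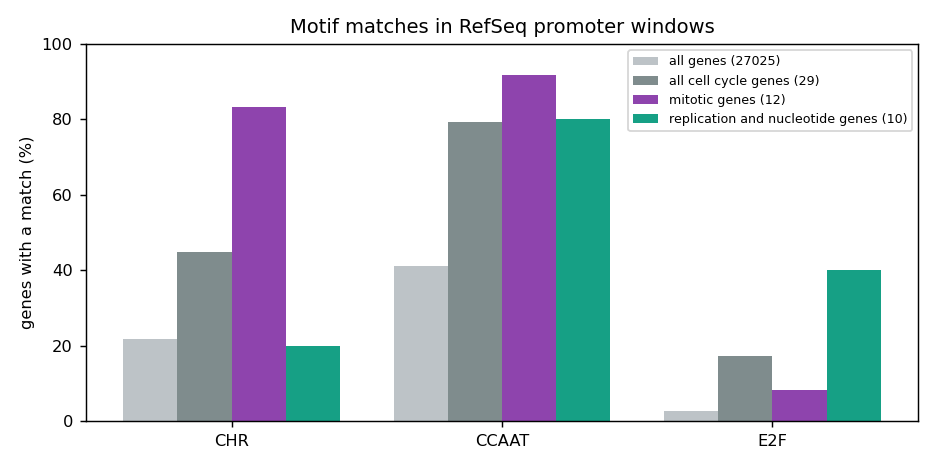
Share of genes (vertical axis, percent, from 0) with a CHR, CCAAT or E2F match in the 300-base RefSeq promoter window, for all genes, the members with a window, the mitotic members and the replication and deoxynucleotide members. CHR matches were in 10 of 12 mitotic and 2 of 10 replication and nucleotide members.

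The 11 genes of the replication fork and of deoxynucleotide supply were split in direction, with 6 lower and 5 higher means in HKO livers and 1 gene called. The subunits of the MCM helicase, loaded at origins before S phase, had log2 fold changes of -0.28 for Mcm4, -0.26 for Mcm6, -0.24 for Mcm2, -0.04 for Mcm3 and 0.03 for Mcm5, all with intervals that span 0. The 95% intervals reached from -0.83 to 0.31 for Mcm6, in which HKO 2 was highest (6.02 CPM) and HKO 3 lowest (2.37 CPM) of all livers. Mcm7 was at 5.70, 6.42, 6.47 and 6.05 CPM in WT and at 7.83, 8.49, 6.87 and 7.92 CPM in HKO livers. All HKO values were higher, but the log2 fold change of 0.33 (SE 0.13) did not pass (edgeR adjusted p = 0.178). Mcm7 hosts the miR-106b, miR-93 and miR-25 cluster on its own strand and overlaps Cops6 on the other, and the handling of strand is not given in the sources used here. Pcna, the sliding clamp of the fork, was the highest of these genes, at 24.9 to 31.5 CPM in WT and 28.3 to 32.6 CPM in HKO livers. On the log2 scale the difference was 0.11 with a 95% interval of -0.10 to 0.31.

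Of the 4 deoxynucleotide genes 1 passed the test, Tk1, the cytosolic thymidine kinase of the salvage pathway (chromosome 11, 117815519 to 117826015). It was at 3.803, 4.54, 3.88 and 6.70 CPM in WT and at 8.77, 8.41, 8.28 and 8.94 CPM in HKO livers, which varied little among themselves. Its mean was 1.82-fold higher in HKO livers, with a log2 fold change of 0.86 (SE 0.18, edgeR adjusted p = 0.0227). The call was lost without WT 1 (adjusted p = 0.0693), WT 2 (0.0787), WT 3 (0.0533) or HKO 4 (0.0587), with log2 fold changes of 0.77 to 1.08 over the 8 fits. Tk1 overlaps Afmid and Gm20708 on the other strand. The genes of de novo synthesis, both subunits of ribonucleotide reductase (Rrm1 at -0.10 and Rrm2 at 0.18) and thymidylate synthase (Tyms at -0.18), had intervals that span 0. The summed level of the 11 replication and deoxynucleotide members was 84.8 to 97.8 CPM in WT and 85.8 to 101 CPM in HKO livers, with the ranges nearly the same.

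**Figure D4:**
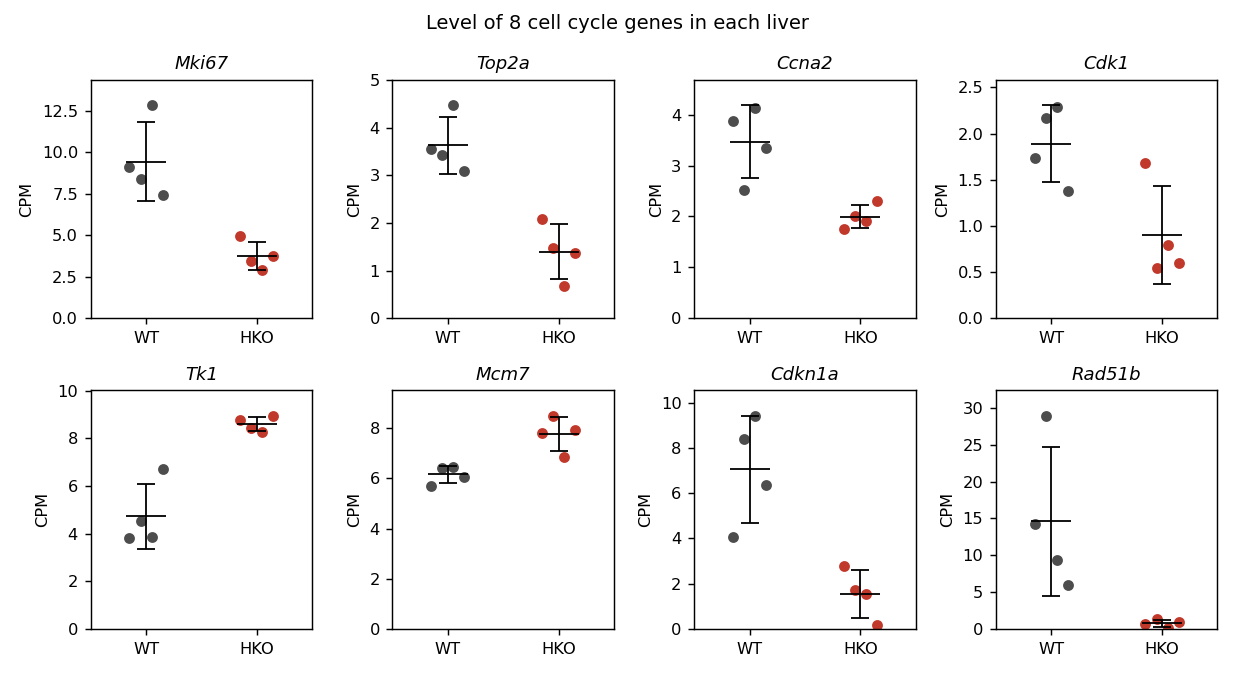
CPM (vertical axes, from 0) of 8 members in each WT (grey) and HKO (red) liver, with mean and SD (n = 4). WT and HKO livers do not overlap for the genes shown other than Cdk1, where HKO 1 lies at 1.69 CPM, and Tk1 and Mcm7 are higher in HKO livers.

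The G1 cyclins went different ways, and none passed the test. Ccnd1, cyclin D1, which links growth signals to CDK4 and CDK6, was at 45.5, 44.5, 48.7 and 26.8 CPM in WT and at 32.9, 35.9, 17.0 and 18.5 CPM in HKO livers. WT 4 lay within the HKO range, and the log2 fold change was -0.67 (SE 0.30, edgeR adjusted p = 0.275). Ccnd2 was at 4.47 to 8.95 CPM in WT and 6.99 to 13.8 CPM in HKO livers, in the opposite direction (log2 fold change 0.53, SE 0.24, edgeR adjusted p = 0.249). Ccnd3 did not overlap, but the difference was small, 14.6 ± 1.08 against 12.7 ± 0.693 CPM (SD, n = 4 each), with a log2 fold change of -0.20 (edgeR adjusted p = 0.323). Counts of Ccnd1, Ccnd3 and Ccne2 are fractional in all livers. The E cyclins, partners of CDK2, were low, with Ccne2 at -0.30 (95% interval -1.05 to 0.44) and Ccne1 untested at 0.848 ± 0.322 and 0.700 ± 0.400 CPM (SD, n = 4 each). E2f1, the transcription factor these cyclins release, had a log2 fold change of -0.50 (95% interval -1.21 to 0.21) and was lowest in HKO 3 at 1.01 CPM.

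Of the CDK inhibitors, the p53 target Cdkn1a (p21) and Cdkn2c (p18) were lower in every HKO liver, while Cdkn1b (p27) was not. Cdkn1a (chromosome 17, 29090979 to 29100723) was at 4.05, 8.38, 9.40 and 6.38 CPM in WT and at 2.77, 1.70, 1.52 and 0.170 CPM in HKO livers. HKO 4 held only 2 counts, under the floor. The mean was 4.58-fold higher in WT livers, and the log2 fold change of -2.17 (SE 0.52) fell just short in edgeR (adjusted p = 0.0517). DESeq2 called it (adjusted p = 0.000173), as did edgeR on total count scaling (0.0420), the older form of its quasi-likelihood test (0.0485), and the fits without HKO 1 (0.0429) or HKO 4 (0.0189). It was not called by limma-voom (0.0629), on RLE scaling (0.0528), without the expression filter (0.06) or with the replicate number as a block (0.130). The other 6 fits without a liver did not call it either (0.0703 to 0.138). Cdkn2c was at 7.61, 6.56, 6.17 and 5.32 CPM in WT and at 3.51, 4.63, 4.11 and 4.60 CPM in HKO livers, with a log2 fold change of -0.61 (SE 0.17, edgeR adjusted p = 0.0611), and was called on total count scaling (0.0374). Cdkn1b was at 33.2 to 42.9 CPM in WT and 35.02 to 44.9 CPM in HKO livers, with a log2 difference of 0.10 with a 95% interval of -0.13 to 0.33.

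Rad51b had the log2 fold change of greatest size among the 29 tested genes, and its WT livers varied widely. Its product acts in the repair of DNA breaks by homologous recombination, and the gene spans chromosome 12 from 79297282 to 79814691, with no annotated gene overlapping it. Its level was 14.3, 28.9, 9.35 and 5.98 CPM in WT livers and 0.607, 1.31, 0.169 and 0.936 CPM in HKO livers. The lowest WT liver had 91 counts and the highest HKO liver 17, and HKO 3 with 3 counts was at the floor. Within WT livers the values ranged 4.83-fold, and HKO 1 and HKO 3 had under 10 counts. The log2 fold change was -4.32 (SE 0.71, 95% interval -5.99 to -2.65, edgeR adjusted p = 0.0199). Limma-voom did not call it (adjusted p = 0.108), and in edgeR the call was lost without HKO 1 (0.0618), HKO 3 (0.0588), HKO 4 (0.0639) or WT 1 (0.0571), while the log2 fold change stayed between -4.75 and -3.75.

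Genes of the same processes outside the 35 were taken as 4 further lists. Of 54 other mitosis genes 35 were tested and 9 were called, all lower in HKO livers (25.7%, against 3.37% of all genes called lower), with a median log2 fold change of -0.54. In 14 of the 35 the HKO values lay wholly below the WT values, against 7.19% of all genes. Genes that passed the filter through the higher WT values had to be lower, so these numbers describe the tested genes alone. Over all 54 genes, tested or not, 50 had a lower mean in HKO livers and 21 lay wholly below the WT values. Of all 17810 genes counted, 8695 had a lower mean in HKO livers and 996 lay wholly below. Spc25, a subunit of the NDC80 complex at the kinetochore, had the highest level of the 9 called genes, at 21.0, 19.0, 18.5 and 15.9 CPM in WT and at 8.64, 9.34, 9.69 and 9.11 CPM in HKO livers. The ranges were far apart (log2 fold change -1.01, SE 0.11, edgeR adjusted p = 0.000875). Log2 fold changes of the others were -2.11 for Racgap1, which organises the central spindle, -2.05 for Ckap2, -1.71 for Ckap2l and -1.66 for Tpx2, which bind spindle microtubules, -1.91 for Cenpf and -1.87 for Cenpe at the kinetochore, and -0.69 for Mad2l1 of the spindle checkpoint. The ninth gene, Knl1, also of the kinetochore, was at -2.04. Spc25, Ckap2 and Cenpe were called without any 1 liver. Cenpf and Tpx2 were called in 2 of the 8 fits (Cenpf without HKO 1 or HKO 3, Tpx2 without HKO 1 or WT 4), Mad2l1 without WT 4, Racgap1 and Ckap2l without HKO 1, and Knl1 in none, with adjusted p up to 0.129 for the 5 genes with a call. All but Spc25 and Mad2l1 had under 10 counts in at least 3 livers.

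Of 48 other replication genes 41 were tested, and none were called by edgeR, DESeq2 or limma-voom, with 5 at an unadjusted p under 0.05 and a median log2 fold change of 0.01. The summed level was 480 to 517 CPM in WT and 500.2 to 522 CPM in HKO livers. Of 30 other G1, CDK and E2F genes 27 were tested and 2 were called (7.41%, near the 5.03% of all genes), both lower, Cdk6 and the CDK inhibitor gene Cdkn1c (log2 fold change -0.93, SE 0.24, edgeR adjusted p = 0.0456), and the median was -0.05. Of 23 genes of the p53 response and growth arrest, the list closest to Cdkn1a, 21 were tested and 3 were called (14.3%), all lower, with a median of -0.29. Ccng1, cyclin G1, was at 112, 140, 140 and 136 CPM in WT and at 87.0, 96.8, 88.6 and 86.2 CPM in HKO livers (log2 fold change -0.56, SE 0.09, edgeR adjusted p = 0.00546). Eda2r, a death receptor gene, was at -1.70 (edgeR adjusted p = 0.0297) and Perp, a membrane protein of junctions, at -0.33 (edgeR adjusted p = 0.0371). Ccng1 was called without any 1 liver, Eda2r without WT 1, HKO 3 or HKO 4, Perp without WT 3, and Cdkn1c without WT 3, with adjusted p up to 0.146 in the other fits.

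**Figure D5:**
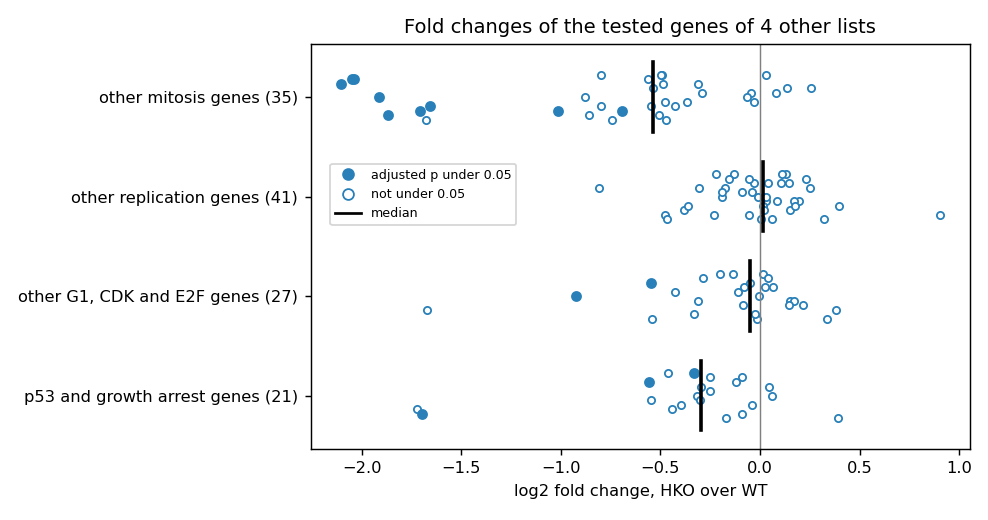
log2 fold changes (HKO over WT, horizontal axis) of the tested genes of 4 further lists, with list sizes in brackets, black bars for medians and filled points for an adjusted p under 0.05 (edgeR). All 9 called mitosis genes lie below 0, and no other replication gene was called.

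Words complementary to its seed were searched in the longest annotated 3′UTR (GENCODE M21, GRCm38), where a match was CAATGCA, which pairs with bases 2 to 8, or AATGCAA, which pairs with bases 2 to 7 and ends in A. Of the 35 members 5 held one (Top2a, Tyms, Tk1, Ube2c and Ccnd2), and 16.2% of the 11536 tested genes with a 3′UTR of at least 50 bases did. The sites of the 2 called genes and of Cdk6, the partner of D cyclins, are shown because miR-33 is absent from HKO hepatocytes, with the matching letters in capitals. They lie at chr11:98992943-98992965 (minus strand), chr11:117815782-117815810 (minus strand) and chr5:3520952-3520981 (plus strand).
Top2a: aatcttctaaaCAATGCAAgcca
Tk1: ccaagatgcctCAATGCAgactggagccc
Cdk6: tgttcagagatCAATGCAAgggtgattgca
Of these, Tk1 was higher in HKO livers and Top2a lower. Ccnd2, with 2 matches, was at 0.53, Tyms at -0.18 and Ube2c at -1.26 on the log2 scale, none of them called. The Ube2c match (chr2:164778620-164778648) lies past the end of the gene as counted (164772903). The Ccnd2 match at chr6:127125194-127125222 also lies outside the counted gene, which starts at 127125709. The 3′UTR of Ccnd1, 2676 bases long, held no match. Cdk6 held 5 matches in 10217 bases and was lower in HKO livers, at 66.1, 77.0, 72.9 and 55.5 CPM in WT and at 58.3, 46.2, 44.0 and 37.3 CPM in HKO livers. HKO 1 lay above WT 4, and the log2 fold change was -0.55 (SE 0.14, edgeR adjusted p = 0.0488). Cdk6 was called without HKO 1 (adjusted p = 0.0152) or WT 4 (0.0286) and lost in the other 6 fits (0.0949 to 0.153). A match of letters does not show repression, and binding was not measured.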

How the data were processed

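RNA-Seq was analysed from 4 WT and 4 HKO livers. The authors deposited estimated counts per gene, aligned with STAR and quantified by Partek's expectation-maximization method, without normalization. Versions and genome build are not given in the sources used here, and the listed coordinates of all 35 members overlap the GRCm38 gene of that name. The labels name both rRNA depletion and a small RNA kit, so the library type is uncertain.

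Counts were rounded, filtered with filterByExpr (minimum count 10), scaled by TMM and tested with edgeR 4.0.16 in R 4.3.3 (robust quasi-likelihood test, Benjamini-Hochberg adjustment, threshold 0.05). SE is the size of the log2 fold change over the square root of F. DESeq2 1.42.0, limma-voom (limma 3.58.1), RLE and total count scaling, 2 other filters, a replicate block and each liver left out served as alternatives, as did, chosen after seeing the data, edgeR's older quasi-likelihood form. Models were tested on simulated counts. Each p-value sets the difference between the genotypes against the spread between livers, with each liver taken as 1 mouse. Members, lists and tests were chosen with earlier results of these data known. All members and Cdk6 are named, and from each further list the called genes, at most 8 by smallest p (Knl1 and Cd4 were named after their values were seen). The genes of 1 further list are not reported here. Searches and plots used Python 3.11.15 and matplotlib 3.10.9.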

Additional observations from a re-analysis of the deposited data

Results flagged for a closer look

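Of 96 groups of 4 livers (each named gene in each genotype), 3 held a liver far from the rest of its genotype, where chance alone gives about 1 in 20 groups, or 5. Ccnb2 was at 0.945 CPM in HKO 1, while the other HKO livers had 0 to 0.113 CPM. Mcm2 was at 3.47 CPM in HKO 2, with the rest of the HKO livers at 2.37 to 2.55 CPM. Ccng1 was at 112 CPM in WT 1, with the rest of the WT livers at 136 to 140 CPM.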

How the results depend on the processing

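Total count scaling gave 7 called members, 6 of them lower, adding Ccna2, Cdkn1a and Cdkn2c. DESeq2 called 5 members lower, and 989 genes in all against 624 in edgeR. With the replicate number as a block (replicate block), 3 members were called, without Top2a, and 456 genes in all. The labels name no pairs of livers. Livers with the same number correlated at r = -0.15 to 0.01 in their deviations from the group means, and 0 of 8 livers correlated best with their own number. These correlations cannot exclude a shared litter or handling. With each liver left out in turn, 1 to 6 members were called, 1 to 5 of them lower and 0 to 1 higher. Over all genes these fits called 212 to 598. Mki67 was in all 8 sets and was the only call without WT 1. The log2 fold change of Mcm5 turned from 0.03 to -0.054 on total count scaling and lay between -0.13 and 0.28 without single livers, and that of Mcm3 turned from -0.04 to at most 0.044 and lay between -0.10 and 0.044. Of 657 values of single genes under alternatives 552 kept direction and side of the threshold, 88 lost the call, 10 gained one and 7 turned. The causes were not tested. Depth limits the 13 members with under 10 counts in a liver, and on at least 10 counts in every liver Rad51b was not tested.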
